A study of Mus musculus with 11 samples.

Results

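The genes described are the machinery that writes, copies and removes DNA methylation: Dnmt1, Dnmt3a, Dnmt3b, Dnmt3l, Uhrf1, Tet1, Tet2, Tet3 and Tdg. They were chosen by name, with earlier results of these data known, and found on the array through the RefSeq accession of each probe. All 9 genes were present among the 20964 genes named on the array, with 18 probes in all, and all 9 were tested. Their transcripts were measured in mouse embryonic stem (ES) cells kept for at least 3 passages in 1 of 3 media: 2i/LIF (5 arrays), KOSR/LIF (3 arrays) or serum/LIF (3 arrays). LIF, leukaemia inhibitory factor, was in all 3 media. 2i is a pair of inhibitors of the kinases MEK and GSK3, KOSR is a defined serum replacement, and serum/LIF is the classical medium. The cells were unsorted and were replicate clones of 3 lines (HVJu9.3, E14 and HVJu5.1), all given as 129/Ola, with no engineered allele in the labels.

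In mammals, DNMT3A and DNMT3B add methyl groups to unmethylated CpG sites, and DNMT3L is a cofactor without catalytic activity of its own that stimulates them. UHRF1 binds hemimethylated CpG sites after replication and brings in DNMT1, which copies the pattern to the new strand. The TET enzymes oxidise 5-methylcytosine, and TDG excises the most oxidised forms so that base excision repair can restore cytosine. ES cells in 2i are known for low global methylation and ES cells in serum for high global methylation. These arrays measured transcripts only, and neither protein nor methylation.

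The promoters of the genes whose levels differed most clearly between media, Dnmt3b, Dnmt3l and Uhrf1, are shown because they differ in how many CpG sites, the target of these enzymes, they hold. Each is 300 bases of RefSeq sequence (assembly GRCm38.p6), on the plus strand, with CpG sites in capitals. The windows lie at chr2:153649199-153649498 (Dnmt3b), chr10:78042037-78042336 (Dnmt3l) and chr17:56304063-56304362 (Uhrf1).
Dnmt3b: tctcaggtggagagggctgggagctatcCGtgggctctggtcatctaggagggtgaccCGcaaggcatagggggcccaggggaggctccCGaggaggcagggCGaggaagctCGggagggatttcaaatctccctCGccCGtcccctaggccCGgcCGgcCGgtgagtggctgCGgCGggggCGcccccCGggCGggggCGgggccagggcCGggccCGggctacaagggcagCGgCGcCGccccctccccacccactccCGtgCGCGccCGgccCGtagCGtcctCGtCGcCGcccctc
Dnmt3l: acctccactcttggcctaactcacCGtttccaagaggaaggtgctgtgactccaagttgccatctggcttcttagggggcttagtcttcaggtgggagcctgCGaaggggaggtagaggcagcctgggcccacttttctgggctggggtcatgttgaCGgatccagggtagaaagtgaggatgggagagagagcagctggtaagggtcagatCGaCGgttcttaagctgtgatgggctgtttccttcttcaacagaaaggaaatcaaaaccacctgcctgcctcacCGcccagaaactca
Uhrf1: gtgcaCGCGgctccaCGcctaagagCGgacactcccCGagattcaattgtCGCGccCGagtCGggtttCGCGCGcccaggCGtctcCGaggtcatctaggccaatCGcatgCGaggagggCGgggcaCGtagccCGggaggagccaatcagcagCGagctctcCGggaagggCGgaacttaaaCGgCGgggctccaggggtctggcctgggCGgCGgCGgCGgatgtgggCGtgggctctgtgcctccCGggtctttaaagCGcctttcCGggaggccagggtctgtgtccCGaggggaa
The Dnmt3b window held 30 CpG sites and the Uhrf1 window 33, whereas the Dnmt3l window held 6. The median over all 32851 RefSeq promoter windows of this length was 7. RefSeq gives Dnmt3l 2 other start windows, with 4 and 3 CpG sites, and Uhrf1 another with 12. All 9 genes matched, with 16 windows, and the others with the most CpG sites were Tet2 on chromosome 3 (57), Dnmt3a on chromosome 12 (47), Dnmt1 on chromosome 9 (33), Tdg on chromosome 10 (26), Tet3 on chromosome 6 (22) and Tet1 on chromosome 10 (17). A PRDM14 motif (GGTCTCTAA, either strand) was in none of the 16 windows, and 0.256% of all promoter windows hold it. An E2F motif (TTTCCCGC or TTTGGCGC, either strand) was in a Dnmt1 window only, and 1.565% of all windows hold it. The GC box (GGGCGG, either strand) was in a window of each gene except Tdg, and 35.658% of all windows hold it.

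KOSR/LIF replicate 3 stood apart: 44.3% of its spots were well above background, against 54.4% to 73.2% on the other 10 arrays, and it correlated less with KOSR/LIF replicates 1 and 2 (r = 0.936 and 0.931 over genes) than they did with each other (0.984). In the authors' deposited value table the column of that sample ranked probes more like the serum/LIF replicate 3 scan (Spearman's rho = 0.962) than like its own scan (0.842). The columns of 2i/LIF replicates 1 and 4 matched each other's scans, and so did those of KOSR/LIF replicates 1 and 2, which leaves the media unchanged. Differences from KOSR/LIF are therefore also given without replicate 3 for the 9 genes, and for the companion genes wherever leaving it out changed a call or moved a fold by over 1.5 times. Titles and source names also disagree on the line of 2i/LIF replicates 1 to 4. Scan day 1 held 2 arrays of each medium, scan day 2 held 2i/LIF replicate 2 and KOSR/LIF replicate 3, and scan day 3 held 2i/LIF replicates 1 and 5 and serum/LIF replicate 3. All 7 ES cell markers were detected in every medium, with a summed level (as a multiple of the array's 75th percentile intensity) of 307 to 455 in 2i/LIF, 155 to 235 in KOSR/LIF and 361 to 462 in serum/LIF. For the 6 measured fibroblast markers the sums were 1.85 to 2.47 in 2i/LIF, 7.06 to 12.4 in KOSR/LIF and 3.71 to 13.4 in serum/LIF, and 1 of them was not well above background on any 2i/LIF array. For the 6 primitive endoderm markers they were 0.274 to 0.541 in 2i/LIF, 1.02 to 8.51 in KOSR/LIF and 0.541 to 1.27 in serum/LIF. The 5 trophoblast markers summed to 10.1 to 14.5 in 2i/LIF, 9.98 to 13.3 in KOSR/LIF and 17.4 to 29.3 in serum/LIF, with Hand1 not well above background on any 2i/LIF array and Elf5 not on any KOSR/LIF array. Most of these sums came from Tfap2c alone, with log2 means of 3.54 in 2i/LIF, 3.35 in KOSR/LIF and 4.29 in serum/LIF. The 4 neural progenitor markers summed to 3.88 to 7.08 in 2i/LIF, 3.99 to 9.53 in KOSR/LIF and 6.04 to 8.62 in serum/LIF. The part of other cells in the results below was not tested, and in such bulk samples fewer cells of a type and less RNA per cell cannot be told apart.

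Levels below are log2 intensities relative to the array's 75th percentile, so that 0 is the level of the probe at that percentile. Levels of different probes are not compared with each other. Differences are on the log2 scale, with the standard error (SE) of a limma fit over all 11 arrays, and a gene passed at an adjusted p under 0.05 over all 16279 genes tested.

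In 2i/LIF against serum/LIF, 2 genes of de novo methylation fell and Uhrf1 rose. Dnmt3l fell 20.0-fold and Dnmt3b 3.68-fold, Uhrf1 rose 2.20-fold, and Dnmt1, Dnmt3a, the 3 Tet genes and Tdg did not pass. Thus 3 of the 9 genes were called, 1 higher and 2 lower, where 16.7% of all genes were called (6.74% higher and 9.98% lower). By the probe with the highest mean level, which stood for its gene, the arrays of the media did not overlap for the same 3 genes. This was so for 25.7% of all genes (11.7% higher and 14% lower). The median difference over the 9 genes was -0.63, against 0.03 over all genes tested. In KOSR/LIF against serum/LIF it was -0.10 (all genes -0.03), and in 2i/LIF against KOSR/LIF it was -0.26 (all genes 0.02). In the same comparison 3 of the 6 fibroblast markers and 1 marker each of primitive endoderm, trophoblast, neural progenitors and ES cells fell, and their part in these differences was not tested.

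**Figure D1:**
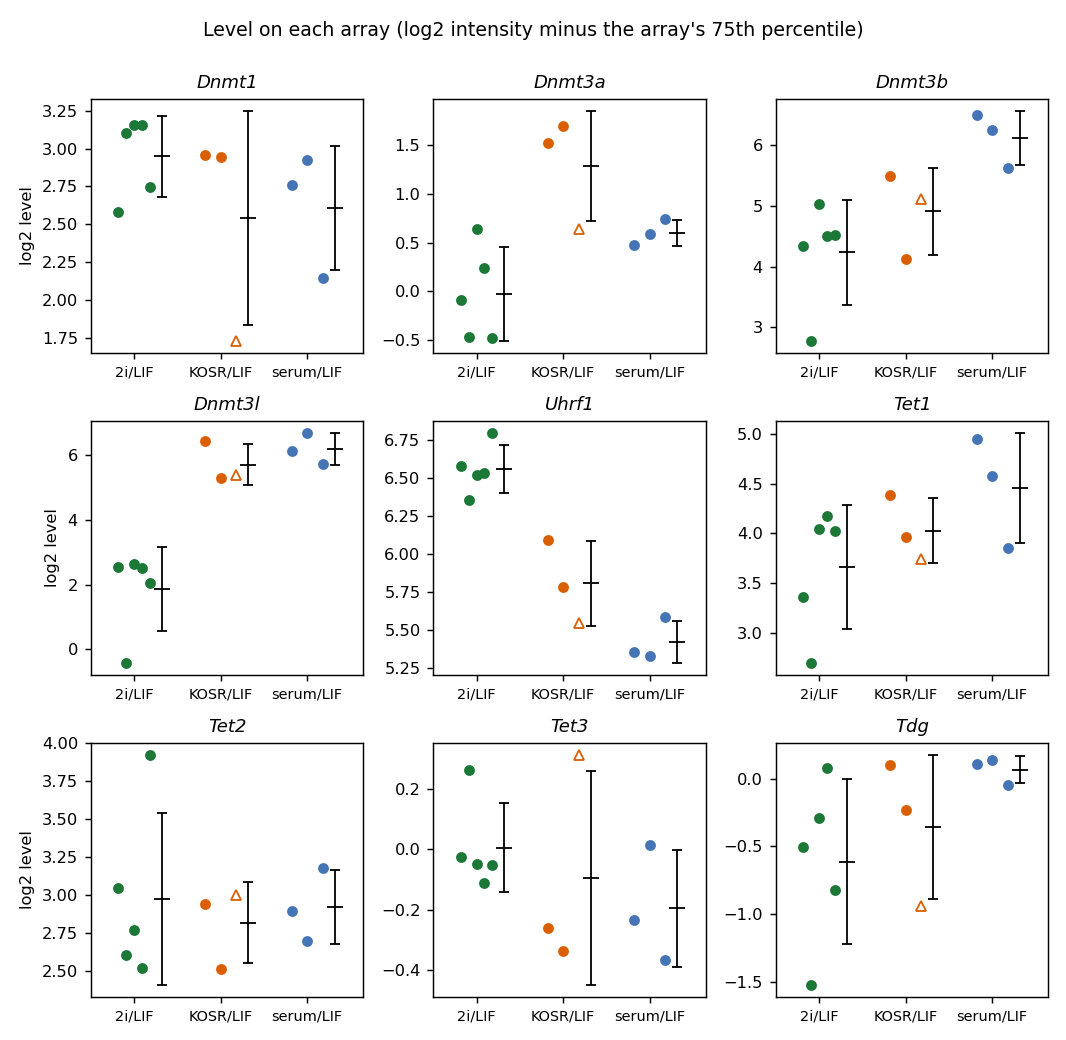
Level of each of the 9 genes on every array (vertical axis, log2 intensity minus the array's 75th percentile; each panel has its own scale) in 2i/LIF (green), KOSR/LIF (orange) and serum/LIF (blue). Points are arrays, the open triangle is KOSR/LIF replicate 3, and the black bar is the mean with its SD (n = 5, 3 and 3). Dnmt3l is at 2.63 or lower on all 2i/LIF arrays and at 5.29 or higher on all others, and Uhrf1 is at 6.35 or higher on all 2i/LIF arrays and at 6.09 or lower on all others.

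Dnmt3l, the cofactor of de novo methylation, had levels of 2.54, -0.43, 2.63, 2.50 and 2.05 on the 2i/LIF arrays (replicates 1 to 5), 6.43, 5.29 and 5.38 on the KOSR/LIF arrays, and 6.13, 6.69 and 5.71 on the serum/LIF arrays. Every 2i/LIF array lay below every array of the other media, and replicate 2 lay well below the other 2i/LIF arrays. The means were 1.86 ± 1.30 in 2i/LIF (SD, n = 5), 5.70 ± 0.64 in KOSR/LIF and 6.18 ± 0.49 in serum/LIF (SD, n = 3 each), so the order was serum/LIF, KOSR/LIF, 2i/LIF, and the first pair did not differ beyond their spread. Dnmt3l fell by 4.32 ± 0.63 in 2i/LIF against serum/LIF (limma, adjusted p = 0.000635) and fell by 3.84 ± 0.63 against KOSR/LIF (limma, adjusted p = 0.00179). Without KOSR/LIF replicate 3 the second difference was -4.01. It passed under each of the 30 alternatives in the first comparison and the 29 in the second. The change against serum/LIF was -3.75 without 2i/LIF replicate 2, and it was -3.85 among the arrays of scan day 1 (2 in each medium) and -3.42 among those of scan day 3 (2 against 1). Against KOSR/LIF the difference was -3.30 within scan day 1 and -5.81 between the arrays of scan day 2 (1 in each medium). Dnmt3l had 1 probe (A_51_P496720), well above background on all 11 arrays.

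Dnmt3b, the de novo methyltransferase of the early embryo and of ES cells, had levels of 4.34, 2.77, 5.04, 4.51 and 4.51 on the 2i/LIF arrays, 5.50, 4.12 and 5.11 on the KOSR/LIF arrays, and 6.49, 6.24 and 5.62 on the serum/LIF arrays. The serum/LIF arrays lay above all others, and those of 2i/LIF and KOSR/LIF overlapped. The means were 4.24 ± 0.86 in 2i/LIF (SD, n = 5), 4.91 ± 0.71 in KOSR/LIF and 6.12 ± 0.45 in serum/LIF (SD, n = 3 each). In that order, neighbouring media did not differ past the threshold, and the ends did. Dnmt3b fell by 1.88 ± 0.48 in 2i/LIF against serum/LIF (limma, adjusted p = 0.0179). The 2 other Dnmt3b probes differed by -1.80 ± 0.48 and -1.73 ± 0.41 and also passed when every probe was tested on its own (limma, adjusted p = 0.0224 and 0.0129, where 15.9% of all probes passed). Leaving out serum/LIF replicate 1 (-1.69, adjusted p = 0.0882) or replicate 2 (-1.82, adjusted p = 0.0681) ended the call, as did limma fits within scan day 1 (-1.59, adjusted p = 0.0896) or scan day 3 (-1.19, adjusted p = 0.160).

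Uhrf1, which brings DNMT1 to replicated DNA, went the other way. Its levels were 6.58, 6.35, 6.52, 6.53 and 6.80 on the 2i/LIF arrays, 6.09, 5.78 and 5.54 on the KOSR/LIF arrays, and 5.35, 5.33 and 5.58 on the serum/LIF arrays. The 2i/LIF arrays lay above all others, and the lowest KOSR/LIF array, replicate 3, lay just below the highest serum/LIF array. The means were 6.56 ± 0.16 in 2i/LIF (SD, n = 5), 5.80 ± 0.28 in KOSR/LIF and 5.42 ± 0.14 in serum/LIF (SD, n = 3 each). KOSR/LIF and serum/LIF did not differ past the threshold. Uhrf1 rose by 1.14 ± 0.20 in 2i/LIF against serum/LIF (limma, adjusted p = 0.00227). A probe for another Uhrf1 transcript rose by 1.36 ± 0.22 (limma with every probe tested, adjusted p = 0.00138). That second probe had levels of -0.39, 0.38, -0.09, -0.02 and -0.01 on the 2i/LIF arrays, -0.62, -1.02 and -0.50 on the KOSR/LIF arrays, and -1.36, -1.42 and -1.37 on the serum/LIF arrays, with no overlap between any pair of media. The difference was 1.19 within scan day 1 and 1.104 within scan day 3, where it did not pass (limma, adjusted p = 0.190). It also missed the threshold when arrays were centred on their median (1.05, adjusted p = 0.0646).

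**Figure D2:**
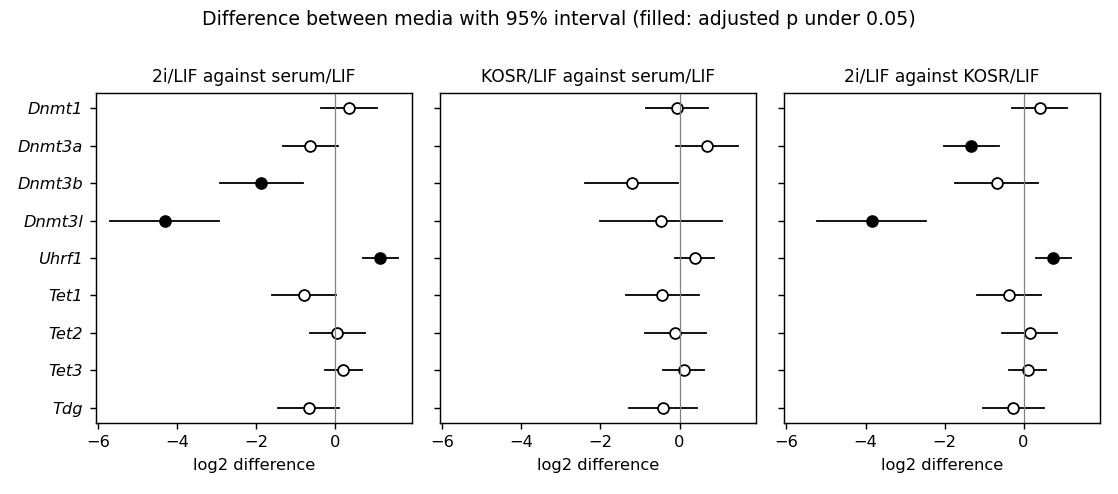
Difference between media for each of the 9 genes (horizontal axis, log2, first medium minus the other) with its 95% interval from the limma fit, in 3 panels for the 3 comparisons. Filled circles passed an adjusted p of 0.05. Dnmt3l, at -4.32 and -3.84, is the farthest from 0 in both comparisons with 2i/LIF, and no circle is filled for KOSR/LIF against serum/LIF.

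Dnmt1, the maintenance methyltransferase, had levels of 2.58 to 3.16 in 2i/LIF, 1.73 to 2.96 in KOSR/LIF and 2.15 to 2.92 in serum/LIF. The lowest of the 11 values was that of KOSR/LIF replicate 3, and the 3 media overlapped. Its difference in 2i/LIF against serum/LIF was 0.34, with a 95% interval of -0.36 to 1.04 (limma, adjusted p = 0.594). For Dnmt1 against KOSR/LIF, 2i/LIF differed by 0.41, and by -0.00204 without KOSR/LIF replicate 3. The interval of the difference from serum/LIF spans 0, so equal levels were not shown.

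Dnmt3a, the other catalytic de novo methyltransferase, had its highest levels in KOSR/LIF. They were -0.10, -0.47, 0.64, 0.24 and -0.49 on the 2i/LIF arrays, 1.53, 1.70 and 0.64 on the KOSR/LIF arrays, and 0.48, 0.58 and 0.74 on the serum/LIF arrays. The highest 2i/LIF array and KOSR/LIF replicate 3 both stood at 0.64, and the other KOSR/LIF arrays lay above all arrays of 2i/LIF and serum/LIF. The means were -0.03 ± 0.48 in 2i/LIF (SD, n = 5), 1.29 ± 0.57 in KOSR/LIF and 0.60 ± 0.13 in serum/LIF (SD, n = 3 each). Dnmt3a fell by 1.32 ± 0.32 in 2i/LIF against KOSR/LIF (limma, adjusted p = 0.0161), and differed by -0.63 ± 0.32 against serum/LIF without passing (limma, adjusted p = 0.239). Without KOSR/LIF replicate 3 the difference from KOSR/LIF was -1.65 (adjusted p = 0.00656). The call was lost without KOSR/LIF replicate 1 (-1.20, adjusted p = 0.0689) or replicate 2 (-1.12, adjusted p = 0.0730), and with each array centred on its median (-1.03, adjusted p = 0.173). It was -1.17 within scan day 1 and -1.11 between the arrays of scan day 2.

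Tet1, the main TET enzyme of ES cells, had levels of 3.36, 2.69, 4.04, 4.18 and 4.03 on the 2i/LIF arrays, 4.39, 3.96 and 3.74 on the KOSR/LIF arrays, and 4.95, 4.57 and 3.86 on the serum/LIF arrays. The media overlapped, with serum/LIF replicates 1 and 2 above all other arrays. The difference in 2i/LIF against serum/LIF was -0.80 ± 0.37 (limma, adjusted p = 0.196), and the second Tet1 probe gave -0.32 ± 0.26. Tet2, the other TET enzyme expressed in ES cells, had levels of 2.52 to 3.92 in 2i/LIF, 2.51 to 3.00 in KOSR/LIF and 2.70 to 3.18 in serum/LIF. The 3 media overlapped, and the highest value was on 2i/LIF replicate 5. Its difference in 2i/LIF against serum/LIF was 0.05, with a 95% interval of -0.64 to 0.74 (limma, adjusted p = 0.956).

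Tet3, the TET enzyme best known from the zygote, had levels of -0.11 to 0.26 in 2i/LIF, -0.34 to 0.31 in KOSR/LIF and -0.37 to 0.01 in serum/LIF. Here too the media overlapped, and the difference in 2i/LIF against serum/LIF was 0.20 (95% interval -0.27 to 0.68, limma, adjusted p = 0.655). Of the 3 Tet3 probes, 1 was well above background on 1 array only and was not tested. Tdg, the glycosylase that removes oxidised cytosine, had levels of -0.50, -1.53, -0.29, 0.08 and -0.82 on the 2i/LIF arrays, 0.10, -0.23 and -0.94 on the KOSR/LIF arrays, and 0.11, 0.14 and -0.04 on the serum/LIF arrays. Replicate 4 of 2i/LIF lay within the range of serum/LIF and the rest lay below it. The difference in 2i/LIF against serum/LIF was -0.68 ± 0.35 (limma, adjusted p = 0.250), and the 2 other Tdg probes gave -0.30 ± 0.27 and -0.43 ± 0.25, both with 2i/LIF arrays below all serum/LIF arrays and neither past the threshold. By mean level of the probe that stood for each gene, the order was serum/LIF, KOSR/LIF, 2i/LIF for Tet1 and Tdg, 2i/LIF, serum/LIF, KOSR/LIF for Dnmt1 and Tet2, and 2i/LIF, KOSR/LIF, serum/LIF for Tet3, and no pair of media passed for any of these 5 genes. Without KOSR/LIF replicate 3, KOSR/LIF minus serum/LIF was 0.34 for Dnmt1 and -0.10 for Tet3, so that KOSR/LIF was no longer lowest for Dnmt1 and no longer second for Tet3. Other probes gave other orders. The second Tet1 probe and 1 other Tdg probe were lowest in KOSR/LIF, with 2i/LIF minus KOSR/LIF at 0.17 and 0.40. The other tested Tet3 probe was highest in KOSR/LIF, with 2i/LIF minus KOSR/LIF at -0.14.

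**Figure D3:**
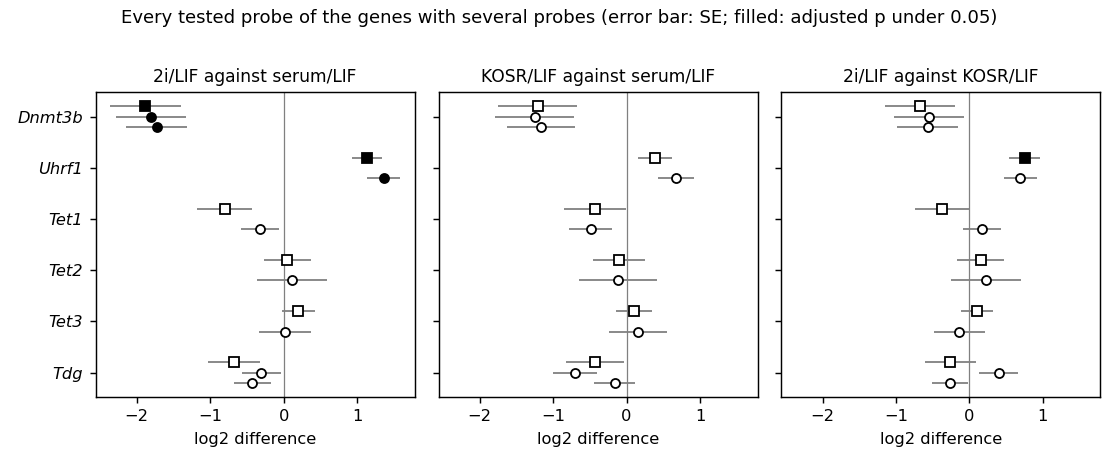
Difference between media for every tested probe of the 6 genes with several probes (horizontal axis, log2, first medium minus the other; bars are SE from the limma fit). Squares are the probes that stood for the gene, and filled symbols passed an adjusted p of 0.05 with every probe tested. The 3 Dnmt3b probes lie between -1.88 and -1.73 and both Uhrf1 probes at 1.14 and 1.36 in 2i/LIF against serum/LIF.

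Between KOSR/LIF and serum/LIF, 0 of the 9 genes passed in the limma fit, where 4.57% of all genes were called (2.37% higher and 2.21% lower) and 4.13% of all probes. At an unadjusted p under 0.05 there was 1, Dnmt3b (-1.21 ± 0.54, limma, adjusted p = 0.253), where 18.7% of all genes reached that level. By the probe that stood for each gene, it was also the 1 gene whose arrays did not overlap, as for 28.4% of all genes (12.4% higher and 16% lower). Among the other tested probes, 1 Dnmt3b probe overlapped, whereas the second Uhrf1 probe and 1 other Tdg probe did not. The other differences ran from -0.48 (Dnmt3l) to 0.69 (Dnmt3a), and their 95% intervals all included 0. Without KOSR/LIF replicate 3 none passed either, and the differences were -1.31 for Dnmt3b, 1.01 for Dnmt3a and 0.52 for Uhrf1, with the other 6 between -0.31 (Dnmt3l) and 0.34 (Dnmt1). In this comparison 2 of the 7 ES cell markers fell, and 1 fibroblast and 1 primitive endoderm marker rose. Within scan day 1 they were -1.56 for Dnmt3b, 1.08 for Dnmt3a, 0.60 for Uhrf1 and -0.54 for Dnmt3l. With arrays weighted by their fit to the rest, which gave KOSR/LIF replicate 3 the lowest weight of the 11 (0.161), Dnmt3a (0.98, adjusted p = 0.00811) and Uhrf1 (0.63, adjusted p = 0.0105) passed. In that weighted fit 3195 of all 16279 genes tested were called, against 744 without weights. This comparison and that of 2i/LIF with serum/LIF share the 3 serum/LIF arrays.

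Set against KOSR/LIF, Dnmt3l and Dnmt3a fell and Uhrf1 rose in 2i/LIF, so that 3 of the 9 genes were called where 14.7% of all genes were (5.95% higher and 8.71% lower). Arrays did not overlap for Dnmt3l and Uhrf1, as for 19.6% of all genes (9.04% higher and 10.6% lower). This comparison shares its 2i/LIF arrays with that against serum/LIF. In it 4 of the 7 ES cell markers rose, and 3 of the 6 fibroblast, 5 of the 6 primitive endoderm, 2 of the 4 neural progenitor and 1 of the 5 trophoblast markers fell. When KOSR/LIF replicate 3 was left out, 2 ES cell markers rose and 1 neural progenitor marker fell, with the other counts as above. The part of these markers in the differences was not tested. Uhrf1 rose by 0.75 ± 0.20 (limma, adjusted p = 0.0279), and the second probe differed by 0.69 ± 0.22 without passing (adjusted p = 0.0650, where 13.6% of all probes passed). This call on Uhrf1 held under 15 of 29 alternatives. It was lost without 2i/LIF replicate 1, 4 or 5 or KOSR/LIF replicate 2 or 3 (adjusted p = 0.0504 to 0.0804; 0.62 and 0.0760 without KOSR/LIF replicate 3) and within scan day 1 (0.59, adjusted p = 0.109). Dnmt3b differed by -0.67 ± 0.48 (adjusted p = 0.412), with -0.03 within scan day 1 and -2.34 between the arrays of scan day 2 (1 in each medium). The Tet genes and Tdg differed by -0.37 (Tet1) to 0.16 (Tet2), and none passed. Without KOSR/LIF replicate 3 the difference was -0.57 for Dnmt3b, -0.51 for Tet1, 0.25 for Tet2, 0.30 for Tet3 and -0.55 for Tdg, and none passed.

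**Figure D4:**
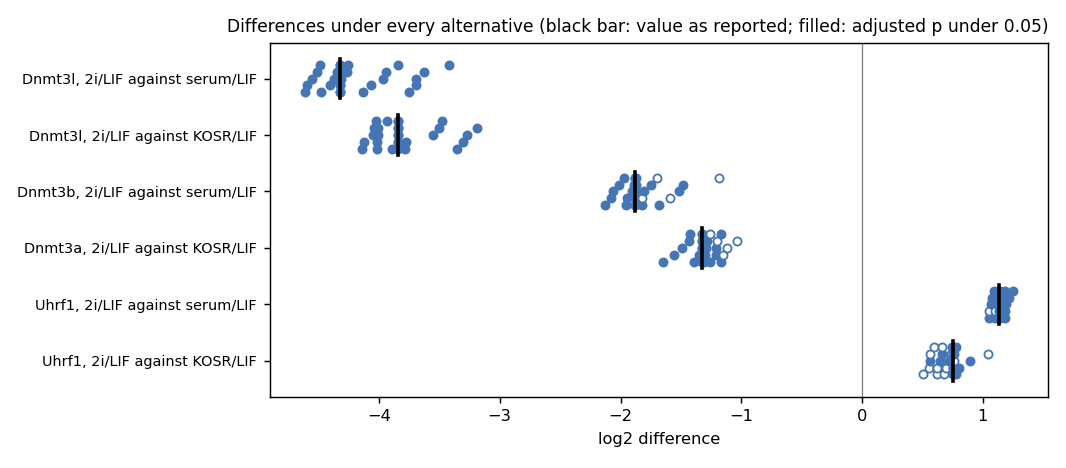
Each difference that passed (horizontal axis, log2, first medium minus the other) under every alternative processing, blue circles, filled where the adjusted p was under 0.05; the black bar is the value reported above. All Dnmt3l circles are filled, between -4.61 and -3.19, while Uhrf1 in 2i/LIF against KOSR/LIF is filled in 15 of 29.

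Companion genes were read from lists chosen by function, with earlier results of these data known. The list of 8 regulators of methylation in naive cells includes general naive-state and pluripotency factors, such as Tfcp2l1, Klf2 and Nanog. Of these 8 genes, 2 rose and 1 fell in 2i/LIF against serum/LIF, where 16.7% of all genes were called. Prdm14, which represses Dnmt3 genes in mouse ES cells, had levels of 2.96, 2.84, 2.81, 3.09 and 3.79 on the 2i/LIF arrays, 1.32, 1.57 and 1.29 on the KOSR/LIF arrays, and 1.39, 1.51 and 2.00 on the serum/LIF arrays. All 2i/LIF arrays lay above all others. Prdm14 rose in 2i/LIF by 1.46 ± 0.26 against serum/LIF and by 1.70 ± 0.26 against KOSR/LIF (limma, adjusted p = 0.00233 and 0.00121), and in KOSR/LIF against serum/LIF it differed by -0.24 ± 0.29. Tfcp2l1, a transcription factor of the naive state, rose in 2i/LIF by 1.45 ± 0.25 against serum/LIF and by 2.88 ± 0.25 against KOSR/LIF. Lin28a, which blocks maturation of the let-7 miRNAs, fell by 3.01 ± 0.54 in 2i/LIF against serum/LIF and fell by 2.52 ± 0.54 against KOSR/LIF.

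Dppa3, which keeps UHRF1 and DNMT1 from maintaining methylation, had levels of 1.68, 3.46, 2.42, 2.98 and 2.02 on the 2i/LIF arrays, 0.17, 0.34 and -1.28 on the KOSR/LIF arrays, and 1.90, 2.69 and 3.16 on the serum/LIF arrays. The KOSR/LIF arrays lay below all others, and those of 2i/LIF and serum/LIF overlapped. Dppa3 fell by 2.84 ± 0.54 in KOSR/LIF against serum/LIF (limma, adjusted p = 0.0145), and did not pass once serum/LIF replicate 2 (adjusted p = 0.0534) or 3 (0.0579) was left out. It rose in 2i/LIF by 2.77 ± 0.48 against KOSR/LIF (limma, adjusted p = 0.00259), and in 2i/LIF against serum/LIF it differed by -0.07 ± 0.48. Of the 8 genes in the list of regulators, 0 rose and 3 fell in KOSR/LIF against serum/LIF, where 4.57% of all genes were called. The 3 were Dppa3, Klf2, a naive-state factor (-1.66), and Tfcp2l1 (-1.42). Klf2 did not pass without serum/LIF replicate 1 or 2 or KOSR/LIF replicate 1 or 2 (adjusted p = 0.0501 to 0.0555), nor Tfcp2l1 without serum/LIF replicate 2 (0.0525) or 3 (0.0654). Against KOSR/LIF 5 rose and 1 fell in 2i/LIF, where 14.7% of all genes were called. Those not named above were the pluripotency factor Nanog (1.81 ± 0.41) and Klf2 (1.81 ± 0.28). Without KOSR/LIF replicate 3, on which the level of Nanog was the lowest of all arrays (1.21), its difference was 1.15. With that array left out of the fit, Nanog also rose in 2i/LIF against serum/LIF (0.82, limma, adjusted p = 0.0165). It had not passed there with all arrays (limma, adjusted p = 0.230). Both genes were added here after their values were seen, as were Idh1 against KOSR/LIF, and Stk31, Sycp3 and Ddx4 against serum/LIF, below. The ES cell markers counted above, which share Klf2, Nanog and Zfp42 with the regulators, were also lower in sum in KOSR/LIF, and their part in these differences was not tested.

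**Figure D5:**
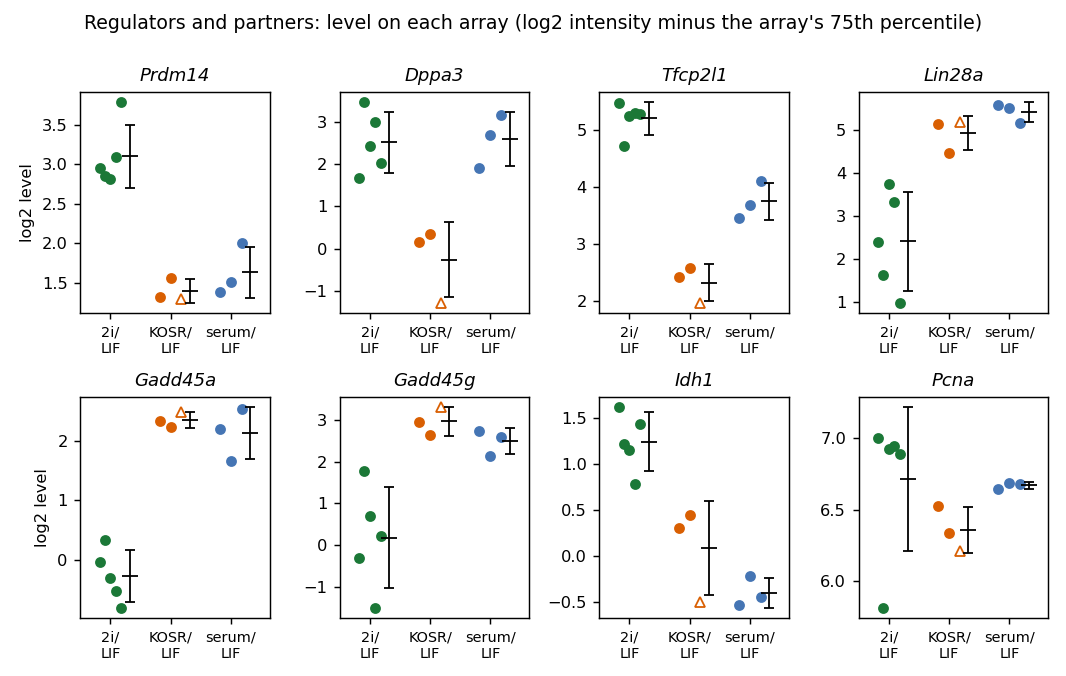
Level of 8 regulators and partners on every array (vertical axis, log2 intensity minus the array's 75th percentile; each panel has its own scale) in 2i/LIF (green), KOSR/LIF (orange, open triangle for replicate 3) and serum/LIF (blue), with mean and SD in black (n = 5, 3 and 3). Prdm14 and Tfcp2l1 are highest in 2i/LIF, Dppa3 is lowest in KOSR/LIF, and Gadd45a and Gadd45g are lowest in 2i/LIF.

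Among 22 TET partners and base excision repair genes, 1 rose and 2 fell in 2i/LIF against serum/LIF, where 16.7% of all genes were called. Idh1, the cytosolic isocitrate dehydrogenase that makes the TET cosubstrate 2-oxoglutarate, rose by 1.64 ± 0.27 (limma, adjusted p = 0.00132). Gadd45a, a stress-induced adaptor linked to demethylation, had levels of -0.05, 0.33, -0.31, -0.53 and -0.81 on the 2i/LIF arrays, 2.33, 2.23 and 2.49 on the KOSR/LIF arrays, and 2.20, 1.66 and 2.54 on the serum/LIF arrays, with 2i/LIF below all others. It fell by 2.40 ± 0.29 in 2i/LIF against serum/LIF and fell by 2.62 ± 0.29 against KOSR/LIF (limma, adjusted p = 0.000175 and 0.000157). Its relative Gadd45g also fell in both (-2.32 ± 0.56 and -2.79 ± 0.56), the first of which did not pass when serum/LIF replicate 1 (adjusted p = 0.0633) or 3 (0.0546) was left out. Against KOSR/LIF 1 of the 22 rose and 3 fell in 2i/LIF, where 14.7% of all genes were called. The riser was again Idh1 (1.15 ± 0.27), and the third to fall was Neil3, a glycosylase of oxidised bases (-1.33 ± 0.30). Neil3 did not pass with the authors' deposited value table (-0.72, adjusted p = 0.0510) or with the slide as a block (-1.16, adjusted p = 0.0512). Between KOSR/LIF and serum/LIF 0 passed in the limma fit, with 3 at an unadjusted p under 0.05 (1 higher, 2 lower), a level that 18.7% of all genes reached.

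Of 13 maintenance partners, 0 rose and 1 fell in each comparison with 2i/LIF, where 16.7% of all genes were called against serum/LIF and 14.7% against KOSR/LIF. The gene was Rb1, a cell cycle inhibitor, at -1.09 ± 0.23 against serum/LIF and -1.25 ± 0.23 against KOSR/LIF. Cdca7l, a relative of the HELLS partner Cdca7, also fell in each when KOSR/LIF replicate 3 was left out (-1.18 against serum/LIF and -1.44 against KOSR/LIF). Pcna, the sliding clamp of replication that recruits DNMT1, differed by 0.05 in 2i/LIF against serum/LIF, -0.31 in KOSR/LIF against serum/LIF and 0.36 in 2i/LIF against KOSR/LIF, and did not pass. It passed in the last without 2i/LIF replicate 2 (0.58, adjusted p = 0.0410), whose level of 5.82 was the lowest of the 11. Of 15 measured DNA replication genes, 0 passed in any comparison in the limma fit, and at an unadjusted p under 0.05 there was 1, higher in 2i/LIF against KOSR/LIF, where 27.2% of all genes reached that level. Of 16 histone methylation and silencing partners 0 passed, with 1 higher at an unadjusted p under 0.05 in each comparison with 2i/LIF. Of 10 readers of methylated or unmethylated CpG, 1 rose in each comparison with 2i/LIF, Zbtb38, a methyl-CpG-binding repressor (0.95 ± 0.22 against serum/LIF and 1.13 ± 0.22 against KOSR/LIF), and the first of these did not pass when serum/LIF replicate 2 was left out (adjusted p = 0.0602). The reader Zbtb33 fell in 2i/LIF against serum/LIF once KOSR/LIF replicate 3 was left out of the fit (-0.80). Between KOSR/LIF and serum/LIF 0 maintenance partners, silencing partners or readers passed in the limma fit, and at an unadjusted p under 0.05 there was 1 maintenance partner and 1 reader, both lower.

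Of 11 measured genes that supply or use S-adenosylmethionine (SAM), the methyl donor, 2 rose in 2i/LIF against serum/LIF, where 16.7% of all genes were called. They were Mtr, methionine synthase (0.90 ± 0.19), and Nnmt, a SAM-consuming methyltransferase (2.03 ± 0.54). Nnmt did not pass when serum/LIF replicate 1 (limma, adjusted p = 0.118) or 3 (0.0585) was left out. It was well above background on all 5 2i/LIF arrays, on 2 of 3 serum/LIF arrays and on 1 of 3 KOSR/LIF arrays. Its smallest difference from serum/LIF among the alternatives was 0.565. Mtr also rose by 0.95 ± 0.21 in KOSR/LIF against serum/LIF, a call lost without any 1 of the 3 serum/LIF arrays or of KOSR/LIF replicates 1 and 2 (adjusted p = 0.0573 to 0.0999). In that comparison, where 4.57% of all genes were called, Tdh fell by 2.44 ± 0.38 (limma, adjusted p = 0.00637). Tdh is threonine dehydrogenase, which feeds folate metabolism in mouse ES cells. Against KOSR/LIF 3 rose in 2i/LIF, where 14.7% of all genes were called. They were Tdh by 2.79 ± 0.34, Nnmt by 1.80 ± 0.54 and Ahcy, which clears S-adenosylhomocysteine, by 1.20 ± 0.32. Ahcy did not pass without KOSR/LIF replicate 3 (0.80, limma, adjusted p = 0.0856) or 2i/LIF replicate 4 (1.09, adjusted p = 0.0582). Nnmt was called in 2 of 11 fits that each left out an array (2.45 without KOSR/LIF replicate 3). With another background correction and quantile normalization, Nnmt differed from KOSR/LIF by 0.52 and did not pass (limma, adjusted p = 0.0683).

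Germline genes whose promoters are silenced by methylation in somatic cells moved in both directions. Of 15 measured, 3 rose and 3 fell in 2i/LIF against serum/LIF, 7 rose and 0 fell in KOSR/LIF against serum/LIF, and 0 rose and 8 fell in 2i/LIF against KOSR/LIF. Of all genes, 16.7%, 4.57% and 14.7% were called in these comparisons, in that order. With KOSR/LIF replicate 3 left out the counts were 4 and 3, 8 and 0, and 0 and 7, with Tex11 (0.92) added in the first, Mov10l1 (2.58) added in the second and Sycp3 (-1.61) lost in the third. Dazl, a translational regulator in the germline, rose by 2.96 ± 0.63 in 2i/LIF against serum/LIF (limma, adjusted p = 0.00663), and Hormad1, of the meiotic chromosome axis, by 2.39 ± 0.39. The others called there were Stk31 (1.31 ± 0.27), Sycp3, of the synaptonemal complex (-1.49 ± 0.42), Ddx4, the germ cell helicase (-2.20 ± 0.30), and Mael. Mael, a piRNA pathway gene, had levels of -1.67, -1.16, -1.51, -1.68 and -0.82 on the 2i/LIF arrays, 3.22, 2.60 and 2.29 on the KOSR/LIF arrays, and 1.24, 0.26 and 1.15 on the serum/LIF arrays. The 3 media did not overlap, with KOSR/LIF highest and 2i/LIF lowest. Mael fell by 2.25 ± 0.32 in 2i/LIF against serum/LIF and fell by 4.07 ± 0.32 against KOSR/LIF (limma, adjusted p = 0.000505 and 2.19e-05). Ddx4 fell by 2.62 ± 0.30 in 2i/LIF against KOSR/LIF, and Mov10l1, a piRNA helicase, fell by 2.97 ± 0.57 (-3.62 without KOSR/LIF replicate 3). Asz1, needed for piRNA production in germ cells, was at least 3.82-fold higher in KOSR/LIF than in serum/LIF (limma, adjusted p = 0.00818), being well above background on 2 of 3 KOSR/LIF and on 0 of 3 serum/LIF arrays. Its fitted log2 difference was 3.82, and with quantile normalization it was 2.94 and did not pass (adjusted p = 0.0804), as it did not with another background correction as well (0.54, adjusted p = 0.184). In that comparison Slc25a31, a nucleotide carrier of sperm, rose by 3.26 ± 0.37, with 1 of 3 serum/LIF arrays well above background, and Dazl rose by 3.58 ± 0.71. Dazl did not pass there when serum/LIF replicate 1 or 2 or KOSR/LIF replicate 1 or 2 was left out (adjusted p = 0.0530 to 0.0776). Of the 6 primitive endoderm markers, 1 rose in KOSR/LIF against serum/LIF (4 without KOSR/LIF replicate 3) and 5 fell in 2i/LIF against KOSR/LIF, and their part in these differences was not tested.

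The genes whose levels over the 11 arrays were most like those of each member were read by Pearson's r, as a description over arrays that share media and scaling. For Dnmt3l they were Icosl (0.971) and Bcar1 (0.970), for Uhrf1 Calcoco2 (0.984) and Pramel30 (0.982), and for Dnmt3b Pou4f2 (0.944) and Ebna1bp2 (0.937). For Dnmt3a they were Adm (0.966) and Igsf21 (0.942), and for Dnmt1 Kif2c (0.961) and Gna11 (0.959). For Tet1 they were Cdv3 (0.958) and Mat2a (0.942), for Tet2 Cib4 (0.929) and Wnk3 (0.911), for Tet3 Tmem190 (0.933) and Rapsn (0.927), and for Tdg Ide (0.957) and Abcf1 (0.954). Mat2a, which makes SAM, is also a member of the SAM list above.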

How the data were processed

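Expression was measured on Agilent one-colour arrays, 1 for each of 11 samples, and groups and replicate numbers come from the sample titles. The scanner intensities were deposited after background subtraction and spatial detrending, for which the file headers name Agilent Feature Extraction 11.0.1.1. A second deposited table, of the authors' processed values, is likewise in linear intensities, with nearly equal quartiles in every column, and the sources used here do not say how it was made. RNA was extracted with Qiagen kits and labelled with Cy3, per the labels' protocols.

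Of 62976 spots, 59305 were not controls and gave 55681 probes, of which 33 were left out because all their spots were flagged as outliers on some array. RefSeq accessions were given for 29109 probes, and 27642 found a gene in RefSeq's table (GRCm38.p6), giving 20964 genes. The array was designed on another build, so no probe coordinates are given. The log2 of each intensity minus the array's 75th percentile was used. Probes well above background on at least 3 arrays entered (21274), and the probe with the highest mean stood for its gene (16279 genes). One linear model without covariates (lmFit and eBayes, limma 3.58.1, R 4.3.3) gave the 3 comparisons. Tests were two-sided, and p-values were adjusted by Benjamini and Hochberg's method across all genes tested. Residual degrees of freedom were 8, and replicate arrays had a median SD of 0.44. The scripts were tested on simulated data.

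Named were all 9 members with every probe, up to 3 genes per companion list that passed with the largest change, Prdm14, Dppa3 and Pcna always, and the 2 genes most like each member (clone and locus names left out). The members, the lists (maintenance partners, DNA replication, TET partners and base excision repair, CpG readers, histone methylation and silencing partners, regulators in naive cells, SAM supply and use, germline genes, and markers of 5 cell types) and the tests were chosen with earlier results of these data known. Where a probe was below background on all arrays of a medium, its fold is only a lower bound ("at least") against the higher of its own signal and the lowest signal well above background on each array. The planned background correction used spot means, which were not used here, so it was run on spot medians.

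The labels call the samples replicate clones. No source used here says which samples were cultured apart, so that p-values reflect the spread between these samples, which may be technical, and precision is limited by the number of arrays. The arrays were scanned on 3 days and 5 slides. Alternatives covered normalization, filters, probe choice, the value table, weights, each array left out, and replicate number, line, scan day and slide as blocks.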

Additional observations from a re-analysis of the deposited data

Results flagged for a closer look

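The level of Dnmt3l on 2i/LIF replicate 2 was -0.43, far below the other 2i/LIF arrays (2.05 to 2.63), and its gap to the nearest was 0.813 of the group's range, above Dixon's critical value of 0.71 for 5 arrays. The level of Tet3 on the same array was 0.26, above the other 2i/LIF arrays (-0.11 to -0.03), with a gap of 0.778 of the range. Chance gives such a value in about 1 in 20 groups, and both stand on the 2i/LIF array with the lowest weight in the weighted fit (0.320). Without it, Dnmt3l differed by -3.75 in 2i/LIF against serum/LIF and by -3.27 in 2i/LIF against KOSR/LIF, and passed in both.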

How the results depend on the processing

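No member reversed a passed difference under any alternative: of 792 repeats of the 27 differences, 765 kept their side of the threshold, 25 lost the call and 2 gained it, and the 2 were Dnmt3a and Uhrf1 in KOSR/LIF against serum/LIF with array weights. Most of the 27 differences had not passed and so had no call to lose. In 2i/LIF against KOSR/LIF, Uhrf1 lost its call in 14 of 29 repeats and Dnmt3a in 5 of 29. In 2i/LIF against serum/LIF, Dnmt3b lost it in 4 of 30 and Uhrf1 in 2 of 30. Dnmt3l was called under every alternative in both comparisons with 2i/LIF. Members called in 2i/LIF against serum/LIF numbered 3, with 1 within scan day 3 and 2 to 3 when an array was left out. In 2i/LIF against KOSR/LIF they numbered 3, with 1 under median centring, without both 2i/LIF arrays with smaller files, and with the replicate block, and 1 to 3 when an array was left out (1 without KOSR/LIF replicate 2). In KOSR/LIF against serum/LIF they numbered 0, with 2 under array weights and 0 whenever an array was left out. Over all genes, 2723 were called in 2i/LIF against serum/LIF, with 4243 under array weights, 1113 within scan day 3 and 1866 to 3204 when an array was left out. In 2i/LIF against KOSR/LIF 2387 were called, with 4133 under array weights, 1408 with the replicate block and 1760 to 2590 when an array was left out. In KOSR/LIF against serum/LIF 744 were called, with 451 without the filter on dim probes, 3195 under array weights and 225 (without serum/LIF replicate 1) to 914 when an array was left out. Median centring moved the median of all genes to -0.41 in KOSR/LIF against serum/LIF and 0.31 in 2i/LIF against KOSR/LIF, against -0.03 and 0.02 as reported. Deviations from the mean of each medium correlated at -0.20 to 0.18 between same-numbered replicates, which over so few arrays cannot exclude a pairing. By title, replicates 1 to 3 of serum/LIF and 2i/LIF bear the same lines in the same order. The titles of KOSR/LIF and the source names of 2i/LIF do not follow that order. Whether same numbers mark paired samples, as the replicate block assumes, was not tested. With that block, Dnmt3a (-1.26, adjusted p = 0.117) and Uhrf1 (0.68, adjusted p = 0.198) lost their calls in 2i/LIF against KOSR/LIF, and no call on a member was gained. Of 1202 repeats of companion gene differences, 83 lost a call, 33 of them with 1 array left out. The other 50 were 12 under the replicate block, 9 within scan day 1 and 6 within scan day 3 (Prdm14 1.37, Tfcp2l1 1.27, Mael -2.40, Rb1, Zbtb38 and Mtr against serum/LIF), 4 each under median centring and the slide block, and 15 under 9 other settings. The causes of these changes were not tested.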
